A study of Homo sapiens with 96 samples.

Results

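The classical SR proteins are encoded by SRSF1, SRSF2, SRSF3, SRSF4, SRSF5, SRSF6 and SRSF7. Every alternative splicing event that the deposited tables assign to these 7 genes was taken, 118 of the 239104 distinct events in all. SRSF5 had 52 events, SRSF4 28, SRSF7 19, SRSF3 8, SRSF2 5, SRSF1 4 and SRSF6 2. Skipped exons (SE) made up 70 of them and pairs of mutually exclusive exons (MXE) 26, beside 10 with an alternative 5′ splice site (A5SS), 6 with an alternative 3′ splice site (A3SS) and 6 retained introns (RI). Many events differ only in their flanking exons, so that the 118 describe 75 distinct alternative segments, and events of 1 gene often count the same reads.

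The data were poly(A)-RNA seq of A549, an established human lung adenocarcinoma cell line, in 10 groups of 3 libraries. Control cells were given 0.01% DMSO and harvested at 4 or 7 days. A single inhibitor, GSK591 or MS023, was given at 1 µM over 2, 4 or 7 days, and co-treated cells had 1 µM of each over 2 or 4 days. GSK591 inhibits PRMT5, the main enzyme of symmetric arginine dimethylation, and MS023 inhibits the Type I arginine methyltransferases, which make asymmetric dimethylarginine. The tables set the 2-day inhibitor groups against DMSO of 4 days, so treatment and time in culture cannot be told apart in those comparisons. The labels do not say whether the libraries of a group came from separate cultures, and the p-values then measure only the spread between these libraries, which may be technical. Libraries are called a, b and c by their position within a table cell. Over the 72938 events listed in all 8 tables the libraries held 44786317 to 65820780 reads, with a read counted once for each event it falls in, and 37255 to 87912 of these reads fell in 32 of the SR protein events. Of the epithelial markers examined, KRT7, KRT8, KRT18 and CDH1 had events with at least 10 reads in every library, KRT19 had no event, and EPCAM had 5 events that did not reach this depth. PTPRC and PECAM1 had no event, and none of the events of CD3E, COL1A1 and COL3A1 reached it.

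SR proteins join RNA recognition motifs to an arginine- and serine-rich tail, bind exonic enhancers and help to recruit the spliceosome to nearby splice sites. Their own genes hold ultraconserved elements around so-called poison exons. A poison exon, when included, brings a stop codon into frame far upstream of the last exon junction, which marks the mRNA for nonsense-mediated decay (NMD). High levels of an SR protein are known to promote such splicing of its own pre-mRNA, so that poison exons and retained introns are a means by which these genes hold their output steady.

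Of the 75 segments, 11 were SE inside an intron of the canonical transcript that no annotated coding transcript contains. SRSF4 had 5 of them, SRSF7 3, and SRSF2, SRSF3 and SRSF6 1 each. They are called poison exons below, from the reading frame of the canonical transcript with the exon inserted and the GENCODE annotation on GRCh37, the release also called hg19. The exon of SRSF6 is 268 nt long and lies in intron 2. Its inclusion ends the reading frame after 135 codons in place of 344, with the stop 534 nt upstream of the last junction. In intron 2 of SRSF4, exons of 228 and 195 nt share a 5′ splice site and differ in their 3′ splice site, and end the frame after 91 and 96 codons in place of 494. In intron 3 of SRSF7, exons of 449 and 276 nt likewise share a 5′ splice site, and end the frame after 137 and 135 codons in place of 238. The sequences of 1 exon each of SRSF6, SRSF4 and SRSF7 are given, chosen as exons under 300 nt that hold their stop and, for SRSF4 and SRSF6, share a run of bases. They are written 5′ to 3′ on the strand of the gene, with the first stop in frame in capitals.
SRSF6 poison exon, chr20:42087793-42088060, plus strand: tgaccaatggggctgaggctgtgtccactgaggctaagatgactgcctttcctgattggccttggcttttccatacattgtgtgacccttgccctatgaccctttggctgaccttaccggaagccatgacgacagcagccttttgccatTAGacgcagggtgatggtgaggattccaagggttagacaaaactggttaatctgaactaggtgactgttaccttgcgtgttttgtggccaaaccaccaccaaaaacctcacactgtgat
SRSF4 poison exon of 228 nt, chr1:29486376-29486603, minus strand: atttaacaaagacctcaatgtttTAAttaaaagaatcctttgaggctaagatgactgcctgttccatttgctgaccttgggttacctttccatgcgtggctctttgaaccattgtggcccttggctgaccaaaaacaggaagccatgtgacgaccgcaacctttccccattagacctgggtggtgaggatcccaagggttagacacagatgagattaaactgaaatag
SRSF7 poison exon of 276 nt, chr2:38976040-38976315, minus strand: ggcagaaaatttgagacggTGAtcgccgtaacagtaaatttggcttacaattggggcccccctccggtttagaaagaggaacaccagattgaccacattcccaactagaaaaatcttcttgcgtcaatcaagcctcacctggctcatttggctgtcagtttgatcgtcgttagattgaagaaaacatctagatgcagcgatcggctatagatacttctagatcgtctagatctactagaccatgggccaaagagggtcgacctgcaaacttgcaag
The SRSF4 and SRSF6 exons shared an unbroken run of 20 bases, TGAGGCTAAGATGACTGCCT, which starts at base 41 of the SRSF4 exon of 228 nt and at base 29 of the SRSF6 exon. Between poison exons of any other pair of genes the longest shared run was 10 bases.

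SRSF3 holds a poison exon of 456 nt in intron 3 (chr6:36567598-36568053, plus strand), which ends the frame after 124 codons in place of 164, with the stop 548 nt upstream of the last junction. The exon of SRSF2 differs from the rest: it is 104 nt long (chr17:74731854-74731957, minus strand) and lies in the 3′ UTR. It leaves the stop codon of SRSF2 where it is and puts a junction 111 nt beyond it, where without the exon the last junction lies 7 nt beyond the stop. NMD is commonly taken to need a junction more than about 50 nt beyond the stop. All 43 SE and RI segments examined had AG at the 3′ splice site and GT or GC at the 5′ splice site of GRCh37. The splice sites of these poison exons are shown with 20 intron and 3 exon bases, then 3 exon and 6 intron bases, and with AG and GT in capitals, since the runs of pyrimidines before AG differ between them.
SRSF2 104 nt, 3′ splice site: tgcattttccccctttaaAGctg
SRSF2 104 nt, 5′ splice site: cagGTttgt
SRSF3 456 nt, 3′ splice site: aaaaatgaaccccgttacAGagt
SRSF3 456 nt, 5′ splice site: ctaGTaagt
SRSF4 228 nt, 3′ splice site: aatgcaattgtttaacatAGatt
SRSF4 195 nt, 3′ splice site: ctcaatgttttaattaaaAGaat
SRSF6 268 nt, 3′ splice site: ttgatgtttcaatttgaaAGtga
SRSF7 449 nt, 3′ splice site: acctggtcaaaacctttcAGgtt
SRSF7 276 nt, 3′ splice site: cttcaccttattctttaaAGggc
Of the 18 bases before AG, pyrimidines made up 14 in SRSF2 and in the 276-nt exon of SRSF7, 11 in the 449-nt exon of SRSF7, 10 in SRSF6 and in the 195-nt exon of SRSF4, 9 in the 228-nt exon of SRSF4 and 8 in SRSF3.

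**Figure D1:**
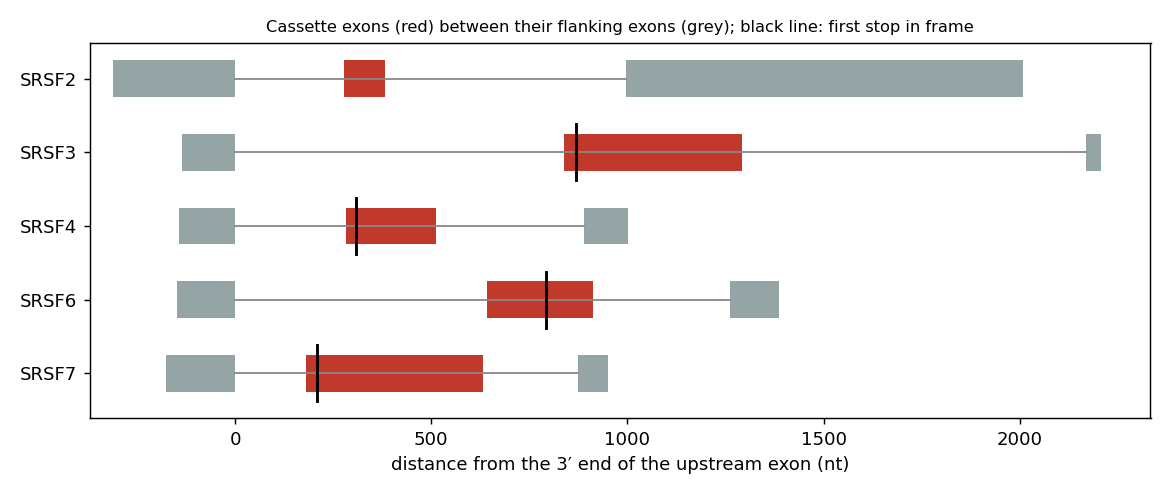
Poison exons (red) of SRSF2, SRSF3, SRSF4 (228 nt), SRSF6 and SRSF7 (449 nt) between their flanking exons (grey), to scale; the x axis gives the distance in nt from the 3′ end of the upstream exon, and a black line marks the first stop in frame. The stop lies inside the exon in all but SRSF2, whose exon of 104 nt starts 278 nt after the upstream exon, which holds the stop codon.

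Splicing was measured as the inclusion level Ψ, the share of the inclusion form among both forms after each count is divided by its effective length, from 0 to 1. Ψ is read from the poly(A) RNA present, so altered splicing and altered decay of a form cannot be told apart. Differences (ΔΨ) are inhibitor minus DMSO, levels are means ± SD of 3 libraries, and an event was called where its adjusted p was under 0.05 by a quasi-binomial F test fitted to all events of the comparison. In GSK591 at 2 days, 6 of 47 SR protein events tested were called, 3 higher and 3 lower, where 7.02% of all events tested were called. MS023 at 2 days gave 9 of 54 (5 higher, 4 lower; 3.16% of all events), and co-treatment at 2 days 14 of 55 (6 higher, 8 lower; 13.4%). At 4 days the counts were 11 of 55 with GSK591 (8 higher, 3 lower; 11.2%), 8 of 61 with MS023 (3 higher, 5 lower; 3.75%) and 20 of 52 with co-treatment (10 higher, 10 lower; 14.7%). At 7 days they were 13 of 47 with GSK591 (10 higher, 3 lower; 8.93%) and 13 of 62 with MS023 (4 higher, 9 lower; 4.75%). These counts depended on the fit. Leaving out 1 library in the same fit left, in the order given, 0 to 1, 0 to 2, 2, 1 to 2, 0 to 1, 3 to 5, 3 and 0 to 1 calls, and limma on the log2 odds gave 0, 0, 2, 1, 0, 6, 3 and 0. The loss was not particular to SR protein events. Without 1 library, calls over all events fell from 7869 to between 631 and 919 with GSK591 at 2 days. With MS023 at 2 days they fell from 3609 to between 9 and 41. Leaving out a library also brought events read in 1 form only into the fit, 3626 to 5520 with GSK591 at 2 days. Over events read in both forms, a setting chosen after results had been seen, calls over all events there were 4709 to 5468. SR protein calls in that setting were, in the order given, 2 to 4, 5 to 9, 10 to 13, 8 to 10, 3 to 7, 15 to 18, 10 to 11 and 3 to 12. With all libraries, the share of SR protein events called was above that of all events in each of these 8 comparisons, between 12.8% and 38.5%, and was not tested, since overlapping events of a gene are not independent. Nor were the 2 sets matched for read depth. Any event with at least 10 reads in each library was tested, and many SR protein events had far more. In all, 112 of the 118 events were tested in at least 1 of these comparisons and 28 were called in at least 1. Co-treatment at either time gave a called event in each of the 7 genes.

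Poison exons accounted for many of these calls, and 10 of the 11 were called in at least 1 comparison with DMSO. With GSK591, 1 of 9 tested rose and 2 fell at 2 days, 6 of 9 rose and 1 fell at 4 days, and 7 of 9 rose at 7 days. Co-treatment raised 5 of 10 and lowered 1 at 2 days, and raised 7 of 10 and lowered 1 at 4 days. MS023 raised 2 of 9 at 2 days, raised 3 of 11 and lowered 2 at 4 days, and raised 4 of 11 at 7 days. Of all SE events tested, 7.16%, 10.6% and 8.55% were called with GSK591 at 2, 4 and 7 days. The shares were 3.67%, 4.28% and 4.95% with MS023, and 13.8% and 14.6% with co-treatment at 2 and 4 days. Poison exons of 1 gene that share reads are not independent. An exon was tested only where both forms were read, so exons with almost no inclusion in DMSO had little room to fall. The median ΔΨ over the poison exons tested was 0.00555, 0.0251 and 0.0336 with GSK591 at 2, 4 and 7 days, 0.00802, 0.0129 and 0.00107 with MS023, and 0.0152 and 0.0406 with co-treatment at 2 and 4 days. Over all SE events tested the medians of these 8 comparisons ran from -0.00325 to -0.000137. Since each library pools the RNA of many cells, fewer cells with a form and less of it per cell cannot be told apart.

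The poison exon of SRSF6, a relative of SRSF4 with 2 RNA recognition motifs, had the highest inclusion of these exons and reached its highest level with co-treatment. In DMSO at 4 days Ψ was 0.101, 0.104 and 0.116 in libraries a, b and c, and in GSK591 at 2 days 0.0949, 0.121 and 0.129. These groups overlapped, with ΔΨ of 0.00779 and adjusted p = 0.52. MS023 at 2 days gave 0.188, 0.158 and 0.158, and co-treatment at 2 days 0.163, 0.17 and 0.193. Both lay above every DMSO library, with ΔΨ of 0.0608 (adjusted p = 2e-10) and 0.0683 (adjusted p = 8e-09). At 4 days GSK591 gave 0.186, 0.197 and 0.196, MS023 0.117, 0.139 and 0.133, and co-treatment 0.3, 0.301 and 0.274. Against a DMSO mean of 0.107 ± 0.00793, GSK591 thus brought inclusion to 0.193 ± 0.00605 (ΔΨ 0.0859, adjusted p = 1.5e-11) and co-treatment to 0.292 ± 0.015 (ΔΨ 0.185, adjusted p = 3.4e-18), while MS023 alone, at 0.129 ± 0.0114, missed the threshold (adjusted p = 0.056). At 7 days Ψ was 0.12, 0.152 and 0.161 in DMSO, 0.234, 0.214 and 0.228 with GSK591, and 0.168, 0.154 and 0.173 with MS023. GSK591 lay apart from DMSO (ΔΨ 0.0807, adjusted p = 2.9e-11) and MS023 overlapped it (ΔΨ 0.0205, adjusted p = 0.32). Each library had 468 to 1300 reads on this event, and these are the reads behind the levels given.

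SRSF4, whose exons share the run of 20 bases with SRSF6, showed the largest changes of the poison exons on the log2 odds scale, from low levels and few reads. For its 228-nt exon Ψ was 0.0273, 0.0296 and 0.0202 in DMSO at 4 days, 0.0648, 0.0637 and 0.0352 in GSK591 at 2 days, and 0.021, 0.0537 and 0.0365 in MS023 at 2 days. GSK591 rose above DMSO (ΔΨ 0.0288, adjusted p = 0.02), and MS023 overlapped it (adjusted p = 0.45). Co-treatment gave 0.0899, 0.0729 and 0.0851 at 2 days and 0.113, 0.177 and 0.124 at 4 days, GSK591 at 4 days 0.0497, 0.0599 and 0.0856, and MS023 at 4 days 0.037, 0.037 and 0.0419. All but MS023 were called, with ΔΨ of 0.0569 (adjusted p = 1.2e-05), 0.112 (adjusted p = 2.8e-09) and 0.0393 (adjusted p = 0.00096), against 0.0129 for MS023 (adjusted p = 0.37). DMSO at 7 days was lower, at 0.00349, 0.00661 and 0.0121, and here GSK591 (0.0478, 0.0227 and 0.0213) and MS023 (0.0171, 0.0192 and 0.0212) both lay above every control library, with adjusted p of 0.00043 and 0.047. The 195-nt exon reached 0.132, 0.22 and 0.151 in co-treatment at 4 days from 0.0367, 0.0276 and 0.0112 in DMSO (ΔΨ 0.143, adjusted p = 6e-10). It was also called in co-treatment at 2 days (ΔΨ 0.069, adjusted p = 6.7e-06), GSK591 at 7 days (ΔΨ 0.0336, adjusted p = 9.2e-06) and MS023 at 7 days (ΔΨ 0.0176, adjusted p = 0.0065). Libraries held 142 to 342 reads on the 228-nt event, and reads of both exons across the shared 5′ splice site enter both events.

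Intron 1 of SRSF4 holds a further 3 poison exons, listed in only some of the tables. The 136-nt exon rose in co-treatment at 4 days, with Ψ of 0.0494, 0.0758 and 0.0534 against 0.0123, 0.00453 and 0.00217 in DMSO (ΔΨ 0.0532, adjusted p = 1.6e-05), and was called in GSK591 (adjusted p = 0.0059) and MS023 (adjusted p = 0.035) at 4 days. For the 184-nt exon, co-treatment gave 0.0614, 0.046 and 0.0402 at 4 days against 0.00354, 0.0115 and 0.0074 in DMSO (ΔΨ 0.0417, adjusted p = 3.2e-05), and calls were also made in co-treatment at 2 days (adjusted p = 0.038) and MS023 at 7 days (adjusted p = 0.046). The 175-nt exon was at 0.0842, 0.101 and 0.0494 in GSK591 at 7 days and at 0.0113, 0.00946 and 0.0296 in DMSO (ΔΨ 0.0614, adjusted p = 6.2e-11). In the 3 pairs given with their libraries, all treated libraries lay above DMSO. The groups overlapped for the 136-nt exon in MS023 at 4 days and for the 184-nt exon in co-treatment at 2 days and MS023 at 7 days.

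**Figure D2:**
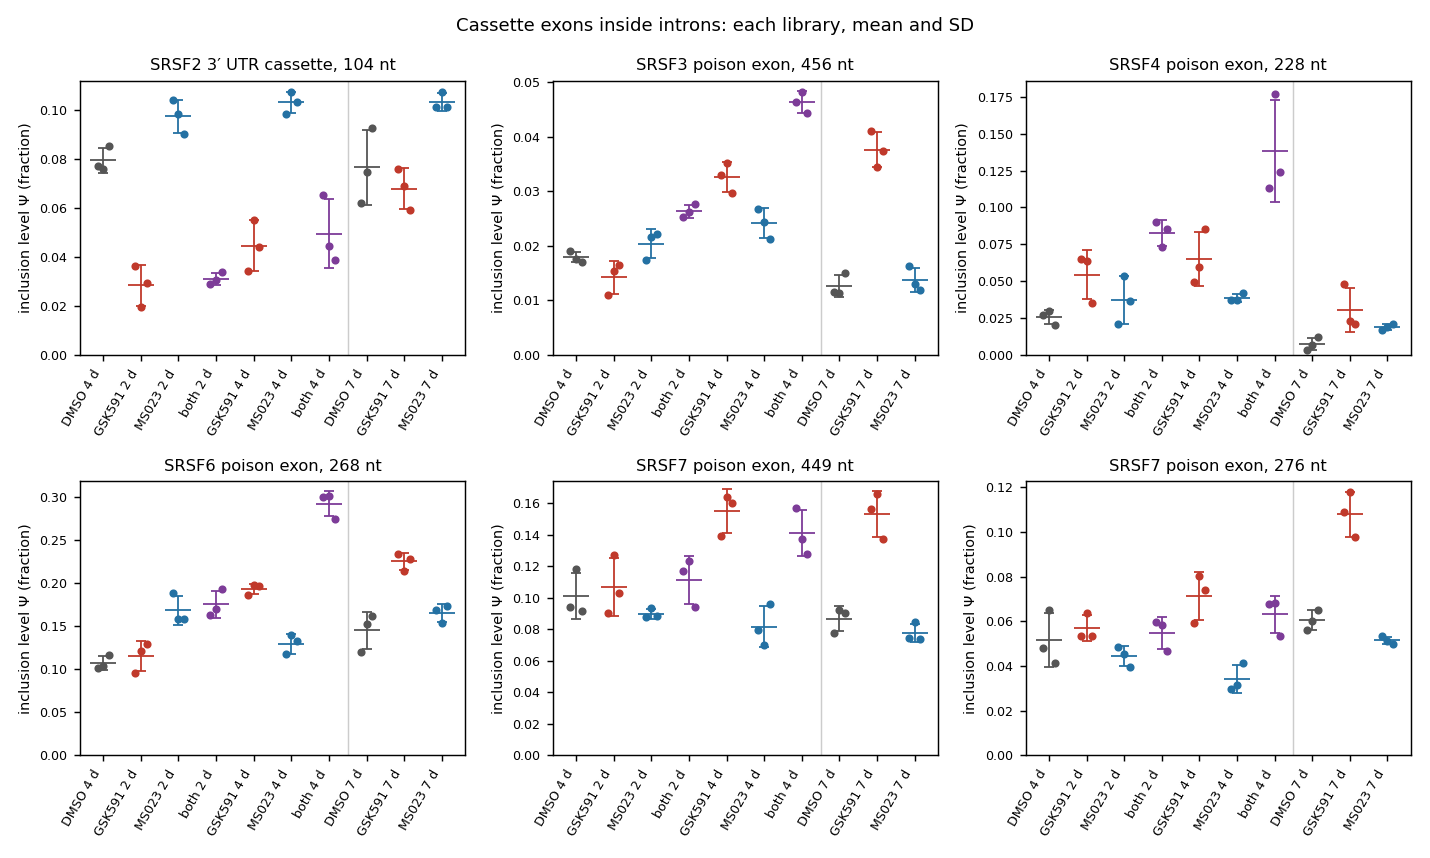
Ψ (y axis, fraction, starting at 0) of 6 poison exons by group (x axis; grey DMSO, red GSK591, blue MS023, purple both inhibitors), with points for libraries a, b and c and bars for mean ± SD, n = 3; a vertical line parts the 7-day groups, which have their own DMSO. SRSF6 reached 0.292 with both inhibitors at 4 days, and SRSF2 stood at 0.0284 with GSK591 and 0.0973 with MS023 at 2 days.

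SRSF2, which binds G- and C-rich enhancers and is mutated in myeloid neoplasms, had a 104-nt 3′ UTR exon that fell with GSK591 at 2 and 4 days and with co-treatment at both times. DMSO at 4 days gave Ψ of 0.077, 0.0758 and 0.0853, GSK591 at 2 days 0.0361, 0.0195 and 0.0295, and MS023 at 2 days 0.104, 0.0981 and 0.0901. All GSK591 libraries lay below and all MS023 libraries above DMSO, with ΔΨ of -0.051 (adjusted p = 2.2e-11) and 0.0179 (adjusted p = 0.0077). Co-treatment followed GSK591 in direction, at 0.029, 0.0306 and 0.0337 at 2 days (ΔΨ -0.0483, adjusted p = 1.9e-13) and 0.0652, 0.0443 and 0.0386 at 4 days (ΔΨ -0.03, adjusted p = 0.00017). At 4 days GSK591 gave 0.0344, 0.0551 and 0.0439 (ΔΨ -0.0349, adjusted p = 8.9e-07) and MS023 0.0981, 0.107 and 0.103 (ΔΨ 0.0232, adjusted p = 0.00052). The groups again lay on either side of DMSO with no overlap. At 7 days DMSO was at 0.0621, 0.0747 and 0.0927, GSK591 at 0.0758, 0.0688 and 0.0589, and MS023 at 0.101, 0.107 and 0.101. MS023 remained above DMSO (ΔΨ 0.0267, adjusted p = 0.00037), whereas GSK591 overlapped it (ΔΨ -0.00864, adjusted p = 0.42). The interaction term, 0.69 on the log2 odds scale for GSK591 at 7 against 4 days, did not pass (adjusted p = 0.11). Reads per library on this event ran from 749 to 3131.

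SRSF2 also had a 98-nt segment of its last exon (chr17:74731143-74731240) whose skipping was rare. The inclusion count takes in ordinary reads of the last exon, which starts at the same 3′ splice site. Ψ is thus no measure of the segment as a separate exon. Ψ of the segment was 1 in all 3 DMSO libraries at 4 days and 0.984, 0.989 and 0.985 with GSK591 at 4 days (ΔΨ -0.014, adjusted p = 3.6e-06). It was called in the same direction in co-treatment at 2 days (0.996, 0.993 and 0.996, adjusted p = 0.004) and 4 days (0.982, 0.977 and 1, adjusted p = 4.2e-05). The call in co-treatment at 2 days was lost without its library b (adjusted p = 0.057). No fold is given, since no skipping read was counted in DMSO at 4 days. Every event tested against DMSO had reads of both forms, so against this control the segment could be listed only with skipping in the treated group. The direction of these calls was thus fixed in advance. The event was not listed for GSK591 or MS023 alone at 2 days.

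For SRSF3, the smallest SR protein, inclusion of the 456-nt poison exon was low throughout and moved with time. Ψ was 0.019, 0.0176 and 0.0171 in DMSO at 4 days, 0.0109, 0.0154 and 0.0164 in GSK591 at 2 days, and 0.0329, 0.0352 and 0.0297 in GSK591 at 4 days. The exon thus lay below every DMSO library at 2 days (ΔΨ -0.00364, adjusted p = 0.024) and above every one at 4 days (ΔΨ 0.0147, adjusted p = 3e-10). MS023 gave 0.0173, 0.0216 and 0.0222 at 2 days (adjusted p = 0.31) and 0.0267, 0.0243 and 0.0212 at 4 days (ΔΨ 0.00621, adjusted p = 0.00082). Co-treatment gave 0.0253, 0.0262 and 0.0276 at 2 days (ΔΨ 0.00846, adjusted p = 2.8e-06) and 0.0463, 0.0482 and 0.0443 at 4 days (ΔΨ 0.0284, adjusted p = 1.4e-16). The latter was the highest level of any group. At 7 days DMSO was at 0.0115, 0.0114 and 0.015, GSK591 at 0.041, 0.0345 and 0.0373 (ΔΨ 0.025, adjusted p = 1.2e-45) and MS023 at 0.0162, 0.013 and 0.0119 (adjusted p = 0.54). The effect of GSK591 against DMSO was larger at 7 than at 4 days by 0.71 ± 0.16 (SE) on the log2 odds scale (adjusted p = 0.0072), a call that was lost without DMSO library a or b of 7 days (0.65, adjusted p = 0.055, and 0.64, adjusted p = 0.061). Between these times mean Ψ went from 0.0326 to 0.0376 with GSK591 and fell from 0.0179 to 0.0126 in DMSO. The part of the DMSO difference in this result was not tested. Libraries held 1446 to 5742 reads on this event.

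SRSF7, which carries a zinc knuckle between its RNA recognition motif and its tail, rose with GSK591 from 4 days on. For the 449-nt exon Ψ was 0.0942, 0.118 and 0.0916 in DMSO at 4 days, 0.0904, 0.127 and 0.103 in GSK591 at 2 days and 0.139, 0.164 and 0.16 in GSK591 at 4 days. The first pair overlapped (adjusted p = 0.79), and at 4 days all GSK591 libraries were higher (ΔΨ 0.0533, adjusted p = 4.3e-09). MS023 gave 0.0875, 0.0932 and 0.0883 at 2 days (ΔΨ -0.0116, adjusted p = 0.1) and 0.0796, 0.0698 and 0.0958 at 4 days (ΔΨ -0.0195, adjusted p = 0.0021). The call at 4 days was thus in the opposite direction, although its groups overlapped. Co-treatment gave 0.117, 0.123 and 0.0939 at 2 days (adjusted p = 0.27) and 0.157, 0.137 and 0.128 at 4 days (ΔΨ 0.0396, adjusted p = 1e-05). At 7 days DMSO was at 0.0774, 0.092 and 0.0905, GSK591 at 0.156, 0.166 and 0.137 (ΔΨ 0.0664, adjusted p = 1.6e-36) and MS023 at 0.0745, 0.0843 and 0.0738 (adjusted p = 0.18). The 276-nt exon was called higher in GSK591 at 4 days (ΔΨ 0.0198, adjusted p = 0.004) and 7 days (ΔΨ 0.0477, adjusted p = 2e-20) and lower in MS023 at 4 days (ΔΨ -0.0175, adjusted p = 0.00018), and the same reads enter both exons in part. The remaining SRSF7 poison exon, of 69 nt in intron 5, had Ψ of at most 0.00422 in any library by its event with the most reads, which was not called in any comparison with DMSO.

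These calls rest on groups of 3. Leaving out 1 library and keeping events read in both forms, a setting chosen after results had been seen, the MS023 calls on the SRSF2 exon were lost without any of 5 of the 6 libraries at 2 and at 7 days (log2 odds 0.28 to 0.39 and 0.33 to 0.65), and at 4 days without MS023 library b (0.38, adjusted p = 0.07) or c (0.41, adjusted p = 0.061). The call on SRSF2 in co-treatment at 4 days was lost without its library c (-0.56, adjusted p = 0.056), and that on SRSF3 in GSK591 at 2 days without any but GSK591 library c, with log2 odds of -0.51 to -0.17. Calls on SRSF3 in MS023 at 4 days (lost without library a or b, 0.36 and 0.43), on the SRSF4 228-nt exon in GSK591 at 4 days (without library c, 1.14, adjusted p = 0.072) and on the SRSF7 449-nt exon in co-treatment at 4 days (without library a, 0.44, adjusted p = 0.063) also turned on single libraries. For SRSF4, the call on the 228-nt exon in GSK591 at 2 days was lost without any of 5 of the 6 libraries and that in GSK591 at 7 days without any of 3 (1.64 to 2.58). All 4 MS023 calls on SRSF4 poison exons were lost without any of 5 or 6 libraries, as was that on the 184-nt exon in co-treatment at 2 days without any of 5, and that on the 136-nt exon in GSK591 at 4 days without any of 4. For SRSF7, the MS023 calls at 4 days were lost without any of 4 libraries for either exon, and the 276-nt exon in GSK591 at 4 days without any of 5. No direction reversed among these. In this setting the calls on SRSF6 and those of GSK591 at 7 days on SRSF3 and on both SRSF7 exons in intron 3 stood without any single library. In the planned fit over every event the same calls were all lost whichever of the 6 libraries was left out, apart from SRSF6 in co-treatment at 4 days, which was lost for 4 of the 6, and limma on the log2 odds called none of them.

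**Figure D3:**
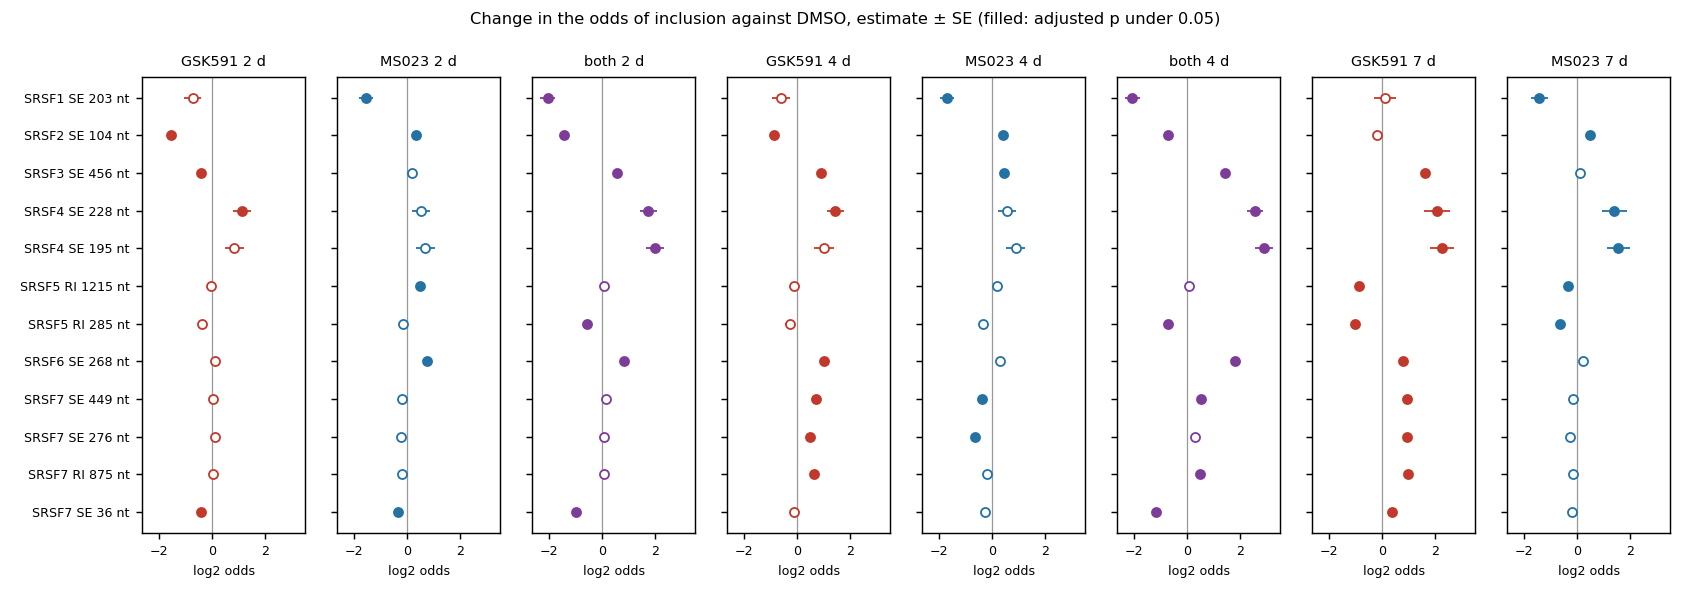
Change in the odds of inclusion against DMSO (x axis, log2 odds, estimate ± SE) of 12 SR protein segments (y axis, named by gene, event type and length) in the 8 comparisons with DMSO; filled points had adjusted p under 0.05. SRSF6 SE 268 nt moved by 1.79 with both inhibitors at 4 days, and SRSF1 SE 203 nt was called in every group that received MS023 and in none that received GSK591 alone.

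Among the retained introns, intron 3 of SRSF7, which holds the exons of 449 and 276 nt, rose with GSK591 at 4 and 7 days. This intron is 875 nt long (chr2:38975796-38976670), and its retention ends the reading frame after 132 codons in place of 238. Ψ was 0.129, 0.152 and 0.12 in DMSO at 4 days, 0.176, 0.202 and 0.199 in GSK591 at 4 days (ΔΨ 0.0588, adjusted p = 7.7e-06) and 0.193, 0.174 and 0.166 in co-treatment at 4 days (ΔΨ 0.0443, adjusted p = 0.0001). At 7 days it was 0.0994, 0.112 and 0.112 in DMSO, 0.189, 0.199 and 0.186 in GSK591 (ΔΨ 0.0836, adjusted p = 7.8e-10) and 0.0905, 0.104 and 0.101 in MS023 (adjusted p = 0.22). The 3 called groups lay above all their control libraries, and at 2 days none of the 3 treatments was called, with adjusted p of 0.83, 0.26 and 0.62 for GSK591, MS023 and co-treatment. MS023 at 4 days was not called either. A rise was frequent among introns. Of all RI events tested, 38.2% were called with GSK591 at 4 days (1333 of 1503 higher) and 27.9% at 7 days (836 of 1070 higher). Reads within the poison exons also count for this intron, so that its rise and theirs are not separate observations.

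SRSF5, known as a serum- and insulin-responsive SR protein, has 4 RI events. Against its DMSO group, intron 5 (1215 nt, chr14:70235969-70237183) was higher with MS023 at 2 days and lower with either inhibitor at 7 days. Its retention ends the reading frame after 124 codons in place of 272. Ψ was 0.183, 0.19 and 0.182 in DMSO at 4 days, 0.242, 0.242 and 0.25 in MS023 at 2 days, and 0.203, 0.207 and 0.212 in MS023 at 4 days. All MS023 libraries were higher, with ΔΨ of 0.0599 (adjusted p = 1.6e-06) and 0.0224 (adjusted p = 0.052). At 7 days Ψ was 0.207, 0.224 and 0.231 in DMSO, 0.125, 0.134 and 0.141 in GSK591 (ΔΨ -0.0874, adjusted p = 3.3e-09) and 0.19, 0.185 and 0.177 in MS023 (ΔΨ -0.0368, adjusted p = 0.00085). Here both inhibitors lay below every DMSO library. DMSO itself was higher at 7 than at 4 days, and MS023 at 7 days overlapped DMSO of 4 days. GSK591 at 2 days (0.2, 0.189 and 0.153) and 4 days (0.169, 0.17 and 0.18) and co-treatment (0.181, 0.196 and 0.201, then 0.178, 0.194 and 0.215) were not called, with adjusted p of 0.93, 0.16, 0.52 and 0.39. The change in effect between 4 and 7 days was itself tested, and was -0.77 ± 0.1 (SE) for GSK591 (adjusted p = 1.9e-05) and -0.53 ± 0.09 for MS023 (adjusted p = 0.0034) on the log2 odds scale, 7 minus 4 days. The 2-day groups did not enter this test. An A3SS event within this intron (956 nt) counts many of the same reads and had the same 3 calls, with ΔΨ of 0.0575, -0.0835 and -0.0354, of which the last was lost without any of 4 libraries (log2 odds -0.42 to -0.26). An MXE event that overlaps it was called in MS023 at 2 days (ΔΨ 0.0598, adjusted p = 0.0004).

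Intron 4 of SRSF5 was retained less often in 4 groups. It is 285 nt long (chr14:70235614-70235898), and its retention ends the frame after 107 codons in place of 272. Ψ was 0.0429, 0.0413 and 0.0476 in DMSO at 4 days, 0.0301, 0.0316 and 0.029 in co-treatment at 2 days (ΔΨ -0.0137, adjusted p = 0.0048) and 0.0204, 0.0312 and 0.0319 in co-treatment at 4 days (ΔΨ -0.0161, adjusted p = 0.0011). At 7 days DMSO was at 0.0384, 0.0491 and 0.0516, GSK591 at 0.0251, 0.0227 and 0.023 (ΔΨ -0.0228, adjusted p = 1.6e-05) and MS023 at 0.0301, 0.0248 and 0.036 (ΔΨ -0.016, adjusted p = 0.0029). None of these groups overlapped its control, and the MS023 call was lost without its library b (log2 odds -0.52, adjusted p = 0.057). The other groups had adjusted p from 0.084 to 0.63. Of the remaining RI events of SRSF5, that of 1570 nt takes in exon 5 and stayed between 0.974 and 1, and that of 259 nt ran from 0.799 to 0.979. Neither was called in any comparison with DMSO.

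In SRSF1, the founding member of the family and a proto-oncogene, splicing moved with MS023 and not with GSK591 alone. Its rarer form joins exon 3 to a splice site in the 3′ UTR and leaves out the end of the coding region with the stop codon, a type of splicing known from SRSF1 autoregulation. An SE segment of 203 nt in exon 4 (chr17:56082759-56082961, minus strand) measured this. Ψ was 0.987, 0.99 and 0.974 in DMSO at 4 days, 0.95, 0.96 and 0.951 in MS023 at 2 days (ΔΨ -0.0297, adjusted p = 1.2e-06) and 0.953, 0.95 and 0.942 in MS023 at 4 days (ΔΨ -0.0352, adjusted p = 1.6e-07). In co-treatment it was 0.919, 0.949 and 0.94 at 2 days (ΔΨ -0.0477, adjusted p = 3.5e-08) and 0.951, 0.924 and 0.929 at 4 days (ΔΨ -0.0488, adjusted p = 2.3e-07). Every library that received MS023 lay below every DMSO library of its comparison. GSK591 alone gave 0.969, 0.982 and 0.968 at 2 days and 0.984, 0.975 and 0.968 at 4 days, and both groups overlapped DMSO (adjusted p of 0.18 and 0.28). At 7 days DMSO was at 0.981, 0.986 and 0.981, GSK591 at 0.99, 0.984 and 0.978 (adjusted p = 0.86) and MS023 at 0.954, 0.942 and 0.969 (ΔΨ -0.0277, adjusted p = 0.00011). The MS023 calls were lost at 2 days without its library c (log2 odds -1.51, adjusted p = 0.07) and at 7 days without its library b (-1.18, adjusted p = 0.089). An SE event of 187 nt and the RI event of 759 nt use the same skipping reads and were called in the same 5 comparisons. The inclusion count of the RI event takes in ordinary exon 4 reads, so it is no measure of retention of intron 3.

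**Figure D4:**
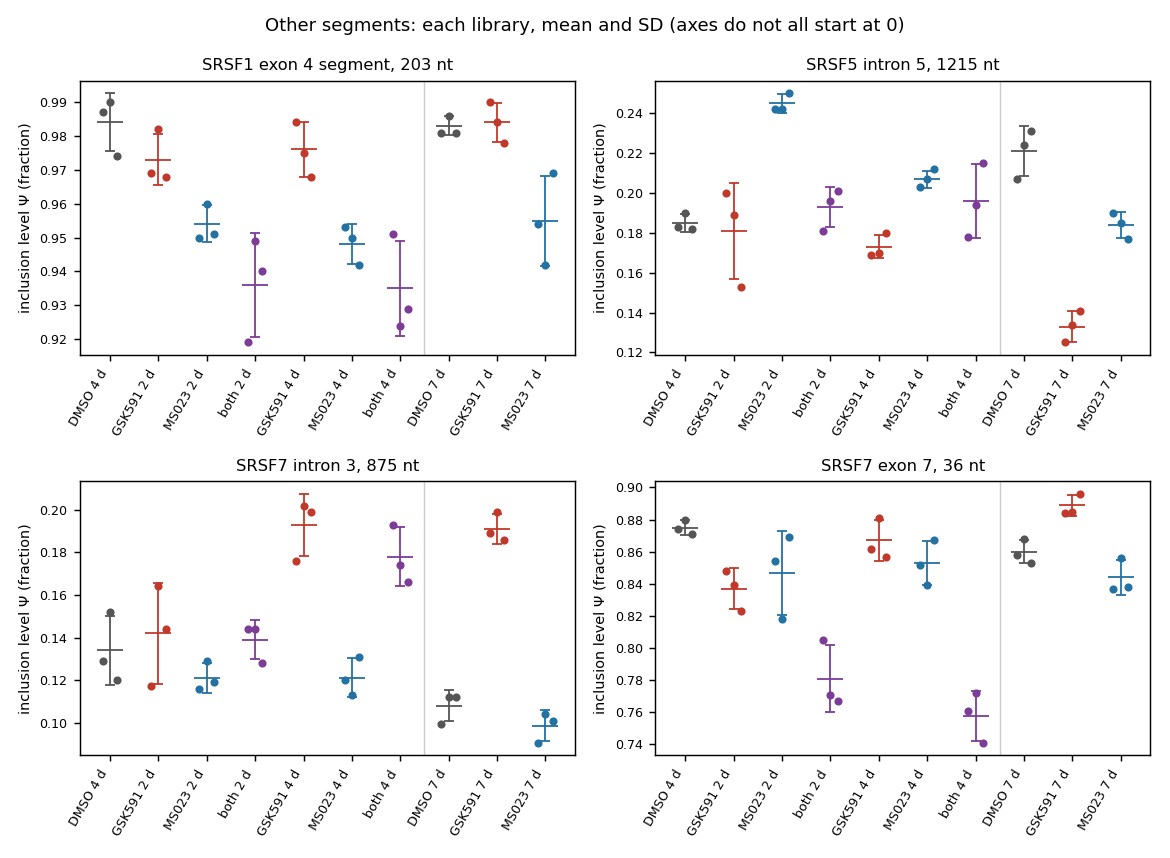
Ψ (y axis, fraction, not starting at 0) of the SRSF1 203-nt segment, SRSF5 intron 5, SRSF7 intron 3 and SRSF7 exon 7 by group (x axis; colours, points and bars as for the poison exons, mean ± SD, n = 3). SRSF7 exon 7 stood at 0.875 in DMSO and 0.758 with both inhibitors at 4 days, and SRSF5 intron 5 at 0.221 in DMSO and 0.133 with GSK591 at 7 days.

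Exons of the coding sequence were for the most part included wherever they were listed. Many of them were listed in few tables, and exon 3 of SRSF3, for example, was tested in only 1 comparison with DMSO. Of 20 whole exons of the canonical transcripts with an SE event, 18 were not called in any comparison with DMSO where they were tested. These 18 had Ψ of 0.93 to 1 in every library with a value. Exon 7 of SRSF7 was one of the exceptions. It has 36 nt, keeps the frame and encodes part of the arginine- and serine-rich tail, and is shown because it moved most in co-treatment.
SRSF7 exon 7, chr2:38973286-38973321, minus strand: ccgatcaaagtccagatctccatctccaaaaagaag
Ψ was 0.874, 0.88 and 0.871 in DMSO at 4 days, and 0.805, 0.771 and 0.767 at 2 days and 0.761, 0.772 and 0.741 at 4 days in co-treatment. Skipping was thus more frequent in all co-treated libraries (ΔΨ -0.0939, adjusted p = 1e-10, and -0.117, adjusted p = 2.6e-12). With a single inhibitor at 2 days it was 0.848, 0.839 and 0.823 for GSK591 (ΔΨ -0.0381, adjusted p = 0.0037) and 0.854, 0.818 and 0.869 for MS023 (ΔΨ -0.0278, adjusted p = 0.039). Neither was called at 4 days (0.862, 0.881 and 0.857 for GSK591, 0.852, 0.839 and 0.867 for MS023; adjusted p of 0.51 and 0.15). At 7 days GSK591 lay above DMSO (0.884, 0.885 and 0.896 against 0.858, 0.868 and 0.853; ΔΨ 0.0289, adjusted p = 0.015). The MS023 call at 2 days was lost without any one of the 6 libraries (log2 odds -0.45 to -0.17), that of GSK591 at 2 days without DMSO library b (-0.38, adjusted p = 0.066), and that of GSK591 at 7 days without any of 5 libraries (0.33 to 0.43).

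Exon 5 of SRSF4 (90 nt, chr1:29476615-29476704), which also encodes part of the tail, was the other exception. Ψ rose from 0.885 ± 0.0389 in DMSO at 4 days to 0.936 ± 0.0239 with GSK591 (adjusted p = 0.035) and 0.946 ± 0.0405 with co-treatment (adjusted p = 0.0081), and from 0.906 ± 0.0178 to 0.946 ± 0.0168 with GSK591 at 7 days (adjusted p = 0.03). DMSO library c, at 0.84, was the lowest of its group, and each of these calls was lost without at least 4 of the 6 libraries. Among the 33 segments outside the rule for named segments, 6 were called in a comparison with DMSO, and they were named after their values had been seen. An A5SS of SRSF5 in the 5′ UTR (125 nt) was higher in GSK591 at 2 days (ΔΨ 0.0495, adjusted p = 0.03) and lower in co-treatment at 4 days (ΔΨ -0.0467, adjusted p = 0.012). An A5SS of SRSF7 exon 5 (9 nt) was higher in GSK591 at 2 days and in co-treatment at 2 and 4 days (ΔΨ 0.0196, 0.0193 and 0.0211; adjusted p of 0.044, 0.026 and 0.03). An A5SS of SRSF1 (37 nt) was lower in MS023 at 7 days (ΔΨ -0.00785, adjusted p = 0.00069). MXE events of SRSF2 (98 nt, called lower in 3 comparisons) and SRSF5 (99 nt and 1359 nt, lower in MS023 at 7 days) were the others, and they share reads with events given above. The 99-nt MXE event pairs exons 4 and 5 of SRSF5, which as SE events were almost always included, so it does not measure a switch between them. A second row of the SRSF7 69-nt exon, with another flanking exon, was called lower in co-treatment at 4 days (ΔΨ -0.0315, adjusted p = 0.043).

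The inhibitors were also compared with each other, where the shared DMSO counts of the tables agreed. Events with reads of 1 form only enter the estimate of the spread shared by all events there, and a second adjusted p is therefore given from a fit over events read in both forms, a setting chosen after results had been seen. GSK591 minus MS023 called 2 of 41 SR protein events at 2 days (2.18% of all events), 6 of 49 at 4 days (4.36%) and 5 of 39 at 7 days (2.62%). With events read in both forms the counts were 13, 16 and 14. Calls over all events rose in this setting as well, to 9851 of 84096, 14578 of 85137 and 11228 of 76196. SRSF1 differed by its RI event but not, as planned, by its SE events, which use the same skipping reads. The RI event was higher with GSK591 at all 3 times (ΔΨ 0.0188, 0.0237 and 0.0244; adjusted p of 0.03, 0.011 and 0.024, second adjusted p of 0.013, 0.0029 and 0.0016). For the SE event of 203 nt ΔΨ was 0.0192, 0.0275 and 0.029 (adjusted p of 0.25, 0.13 and 0.23, second 0.014, 0.00061 and 0.00039), and that of 187 nt was likewise not called as planned (adjusted p of 0.25, 0.13 and 0.26). The RI call at 2 days was lost, with events read in both forms, without GSK591 library b or MS023 library a or c (log2 odds 0.71, 0.89 and 0.86; adjusted p of 0.075, 0.057 and 0.058). An A5SS of SRSF1 (37 nt) was also higher with GSK591 at 4 days (ΔΨ 0.00828, adjusted p = 0.034). SRSF5 intron 5 was lower with GSK591 at all 3 times (ΔΨ -0.0641, -0.0342 and -0.0505; adjusted p of 0.027, 0.0038 and 0.0013, second 0.00016, 0.00026 and 2.4e-10). SRSF7 intron 3 was higher with GSK591 at 4 days (ΔΨ 0.0711, adjusted p = 0.0014, second 6.3e-11) and 7 days (ΔΨ 0.0928, adjusted p = 0.00018, second 1.9e-20). The poison exon of SRSF2 was lower at 4 days (ΔΨ -0.0581, adjusted p = 0.042, second 6.4e-16) and that of SRSF6 higher (ΔΨ 0.0636, adjusted p = 0.045, second 5.3e-08). At 2 days the SRSF2 difference of -0.0689 did not pass as planned (adjusted p = 0.063) and did in the second setting (2.2e-25), as did that of SRSF6, with -0.053 (adjusted p = 0.22, second 3.5e-06). At 7 days the poison exon of SRSF3 (ΔΨ 0.0239, adjusted p = 0.047) and the 276-nt exon of SRSF7 (ΔΨ 0.0567, adjusted p = 0.043) were higher with GSK591.

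Co-treatment minus GSK591 gave 0 calls by the quasi-binomial F test among 44 SR protein events at 2 days (0.0515% of all events) and 45 at 4 days (0.252%), with 9 and 10 at an unadjusted p under 0.05, 8 and 8 calls with events read in both forms, and 0 and 0 by limma on the log2 odds. With events read in both forms, calls over all events rose as well, to 3740 of 84834 and 5658 of 86639. The largest differences at 4 days were the 195-nt exon of SRSF4 (ΔΨ 0.118, adjusted p = 0.25, second 1.5e-08), SRSF7 exon 7 (-0.109, adjusted p = 0.11, second 5.5e-18) and the SRSF6 poison exon (0.0987, adjusted p = 0.11, second 1.5e-10). In the second setting co-treatment thus differed from GSK591 in these exons, and as planned it did not pass.

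DMSO at 7 minus 4 days called 1 of 50 SR protein events (3.06% of all events), an MXE event of SRSF5, named after its values had been seen, with ΔΨ of 0.158 (adjusted p = 4e-04). This event pairs exons 4 and 5, which as SE events had Ψ of at least 0.998 and 0.996 in every library with a value. Reads inside both exons enter its counts, so its ΔΨ does not measure a switch between them. Calls over all events were mostly of the MXE type, with 17.5% of MXE events called (3248 of 18538) and no SE, A3SS or A5SS event. With events read in both forms 11 SR protein events were called, where 6733 of 95668 events in all were called. In that setting the poison exons of SRSF3 (ΔΨ -0.00524, adjusted p = 0.73, second 0.0028), SRSF4 (228 nt, -0.0183, adjusted p = 0.73, second 0.0066) and SRSF6 (0.0374, adjusted p = 0.73, second 0.0019) differed between the control groups. The interaction of GSK591 with time called 3 of 33 events (1.83% of all events) and that of MS023 2 of 44 (0.0779%). These were the SRSF3 poison exon and the SRSF5 events of intron 5 described above.

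Other genes of the pathway were taken from fixed lists. Of 13 SR-related proteins and SR kinases (SRSF8 to SRSF12, the TRA2, CLK and SRPK genes), 11 had tested events. GSK591 called 6 of 122 at 2 days (1 higher, 5 lower), 16 of 124 at 4 days (7 higher, 9 lower) and 15 of 102 at 7 days (7 higher, 8 lower). MS023 called 7 of 132 (2 higher, 5 lower), 8 of 129 (3 higher, 5 lower) and 11 of 108 (7 higher, 4 lower), and co-treatment 11 of 125 (3 higher, 8 lower) and 19 of 116 (10 higher, 9 lower). The shares called were 4.92%, 12.9% and 14.7% with GSK591, 5.3%, 6.2% and 10.2% with MS023, and 8.8% and 16.4% with co-treatment. They lay below the share of all events called in GSK591 and co-treatment at 2 days (7.02% and 13.4%) and above it in the other comparisons, by little in GSK591 and co-treatment at 4 days (11.2% and 14.7%). The largest called changes at 2 days were in an exon of CLK2, which encodes a kinase that phosphorylates SR proteins, from 0.734 ± 0.0475 in DMSO to 0.375 ± 0.0746 with co-treatment (adjusted p = 2.6e-06), an exon of SRSF10, a splicing repressor, from 0.914 ± 0.00396 to 0.639 ± 0.036 with GSK591 (adjusted p = 1.3e-09), an exon of TRA2A, from 0.261 ± 0.139 to 0.514 ± 0.0837 with co-treatment (adjusted p = 0.012), and an exon of CLK1, from 0.875 ± 0.0255 to 0.661 ± 0.068 with MS023 (adjusted p = 0.00012).

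NMD factors, which remove mRNA with poison exons, formed the second list. Of the 10 genes (UPF1, UPF2, UPF3A, UPF3B, SMG1 and SMG5 to SMG9), 9 or 10 had tested events. GSK591 called 6 of 148 at 2 days (2 higher, 4 lower), 20 of 169 at 4 days (7 higher, 13 lower) and 13 of 146 at 7 days (6 higher, 7 lower). MS023 called 1 of 167 (lower), 4 of 162 (1 higher, 3 lower) and 4 of 138 (3 higher, 1 lower), and co-treatment 23 of 170 (7 higher, 16 lower) and 20 of 165 (8 higher, 12 lower). The shares called were 4.05%, 11.8% and 8.9% with GSK591, 0.599%, 2.47% and 2.9% with MS023, and 13.5% and 12.1% with co-treatment, near or below those of all events (7.02%, 11.2% and 8.93%, 3.16%, 3.75% and 4.75%, and 13.4% and 14.7%), so that the counts show nothing particular to these genes. The largest called changes at 2 days were an exon of SMG1, the kinase of UPF1, from 0.466 ± 0.0525 to 0.231 ± 0.00612 with co-treatment (adjusted p = 3.6e-06), an exon of UPF3A, from 0.98 ± 0.0354 to 0.807 ± 0.116 with co-treatment (adjusted p = 0.0063), an MXE of UPF2, from 0.597 ± 0.0216 to 0.71 ± 0.0299 with co-treatment (adjusted p = 0.0093), and an A5SS of UPF1, the central helicase, from 0.169 ± 0.0254 to 0.277 ± 0.0192 with GSK591 (adjusted p = 0.0056). Whether these changes bear on the level of poison exons was not tested.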

How the data were processed

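Poly(A)-RNA seq libraries of A549 cells were analysed from the tables that the authors deposited. Per the study's methods and the submitters' processing notes, reads of 150-nt stranded paired-end libraries were trimmed with Trim Galore 0.6.5, aligned to hg19 with STAR 2.4.2a and counted with rMATS, which was run with junction reads and reads inside the alternative segment. The deposited tables hold, for each event, whole-number read counts of the inclusion and skipping form in 3 libraries a group, the effective length of each form, and inclusion levels as a fraction. The authors also deposited p-values, FDR and mean differences of their own comparisons, which were not used. Per the file headers the libraries of a group are told apart only by position.

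Inclusion levels were recomputed from counts and lengths, and differed from the deposited ones by at most 0.0005. Counts of DMSO libraries agreed between tables for all shared events. A quasi-binomial model was fitted in R 4.3.3 to every event with at least 10 reads in each library, with the dispersion moderated by limma 3.58.1 and held at 1 or above, an F test, and Benjamini-Hochberg adjustment within event type and comparison (threshold 0.05), in 16 comparisons. The script was tested on simulated data. Events with reads of 1 form only have an estimated dispersion of 0, and a fit without them was added after counts of calls had been seen. A prior taken from events with at least 10 reads of the rarer form, and a deviance-based dispersion, were also tried on some comparisons and not used.

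Named segments were SE that bring a stop into frame or occur in an annotated NMD transcript, every RI, and any other segment called against DMSO with a mean difference of 0.05 or more. For each segment the event with the most reads stands for it. Whole constitutive exons that this takes in are given by their range. For the other pathway genes, up to 4 per list were named by the largest called change at 2 days. The members and lists were chosen with earlier results of these data known. Reading frames, splice sites and sequences came from GENCODE lifted to GRCh37 and its genome, which may differ from the annotation the authors used. Alternatives were another minimum of reads, adjustment over all types, limma on log2 odds with 0.5 added, counts without length and leaving out each library. Gene-level expression was not quantified, and the other samples of the series were not analysed here.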

Additional observations from a re-analysis of the deposited data

Results flagged for a closer look

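The effect of an inhibitor differed between 4 and 7 days, by the interaction term of the quasi-binomial model (log2 odds, 7 minus 4 days), in 5 results from 2 genes. For GSK591, the poison exon of SRSF3 differed by 0.71 (adjusted p = 0.0072), the A3SS within intron 5 of SRSF5 by -0.78 (adjusted p = 5.4e-08) and retention of that intron by -0.77 (adjusted p = 1.9e-05). For MS023, the same SRSF5 events differed by -0.53 (A3SS, adjusted p = 0.0015) and -0.53 (RI, adjusted p = 0.0034). The SRSF5 events share reads and count as 1 observation. The DMSO groups of the 2 times also differed in SRSF5 intron 5 by ΔΨ of 0.0358 (adjusted p = 0.078, and 0.0035 over events read in both forms), and the part of this difference in the result was not tested. For the SRSF3 poison exon mean Ψ in DMSO was 0.0179 at 4 days and 0.0126 at 7 days, and the part of this difference was not tested either.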

How the results depend on the processing

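No paired analysis was possible because the columns carry no replicate numbers. Of 99 called results on named segments, none reversed under any alternative run. A minimum of 20 reads and the fit over events read in both forms kept all 99, a minimum of 1 read and adjustment over all types each lost 4, and limma on log2 odds lost 83. With limma the SR protein events called were 0, 0 and 2 at 2 days (GSK591, MS023, co-treatment), 1, 0 and 6 at 4 days, 3 and 0 at 7 days (GSK591, MS023), 0 for GSK591 versus MS023 at 2 days, and 0 and 0 for the interactions. Adjustment over all types left 1 call for GSK591 versus MS023 at 2 days, and a minimum of 1 read 3 at 7 days. Over events read in both forms, chosen after seeing the data, GSK591 versus MS023 gave 13, 16 and 14 calls at 2, 4 and 7 days, co-treatment versus GSK591 8 and 8, and DMSO at 7 versus 4 days 11. Calls over all events rose in this setting as well. Leaving out 1 library lost 471 of 624 values over every event and 117 over events read in both forms. The counts then ran, first over every event and then over events read in both forms, from 0 to 1 and 2 to 4 for GSK591 at 2 days, 0 to 2 and 5 to 9 for MS023 at 2 days, 2 to 2 and 10 to 13 for co-treatment at 2 days, 1 to 2 and 8 to 10 for GSK591 at 4 days, 0 to 1 and 3 to 7 for MS023 at 4 days, 3 to 5 and 15 to 18 for co-treatment at 4 days, 3 to 3 and 10 to 11 for GSK591 at 7 days, and 0 to 1 and 3 to 12 for MS023 at 7 days. For GSK591 versus MS023 they were 0 to 2 and 5 to 11, 3 to 3 and 13 to 15, and 2 to 3 and 12 to 14 at 2, 4 and 7 days, for co-treatment versus GSK591 0 to 0 and 5 to 9, then 0 to 0 and 7 to 10, for DMSO 1 to 1 and 2 to 11, and for the interactions 2 to 5 and 2 to 5 (GSK591) and 2 to 2 and 2 to 2 (MS023). In the comparisons with DMSO, calls over all events fell as well when 1 library was left out of the planned fit. The cause was not tested. Counts without division by length moved 237 of 307 inclusion levels by more than the spread between libraries.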
